A study of Mus musculus with 2 samples.

Results

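The genes described here are 10 genes of the blood lineages, read in the epiblast of mouse embryos at embryonic day 6.5. They were taken by name from a list of 10 symbols, out of 21631 protein-coding genes of the autosomes and the X chromosome. Of the 10, 7 encode regulators (Tal1, Runx1, Spi1, Klf1, Gfi1b, Lmo2 and Myb) and 3 encode effectors of mature blood cells (Csf1r, Ptprc and Coro1a). The DNA came from wild-type female (XX) C57Bl6/J embryos, which came from natural matings without culture, with the epiblast dissected away from the extra-embryonic tissue, which was used to determine sex. The labels list 2 samples of this group, and the deposited table of methylated and unmethylated read counts has no column for either, so replicate error could not be computed for any value. The table holds methylation alone, so the labelled lineage was not checked against the expression of its markers.

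The first blood cells arise from mesoderm, which the epiblast gives rise to during gastrulation, so the epiblast is an ancestor of blood cells. Tal1 and Lmo2 act in a shared protein complex that is needed at the onset of blood formation, Runx1 is needed for blood stem cells to emerge from endothelium, and the other regulators direct particular blood lineages. Most regulators of development start in CpG islands, stretches dense in CpGs that usually stay free of methylation whether or not the gene is active, whereas many genes of mature blood cells start in CpG-poor DNA, which is usually methylated where it is not in use.

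A level is the percentage of read counts that were methylated over all CpGs of a region, with both strands summed. The range after a level is its exact Clopper-Pearson 95% interval, which covers counting error only and treats each read count as independent. A region was called low when its interval lay under 20%, high when it lay over 60%, intermediate when it lay within 20% to 60%, and unresolved otherwise. A start was CpG-rich with at least 40 CpGs within 500 bp of it, CpG-poor with under 20, and CpG-intermediate in between. The autosomes held 133245671 read counts at a level of 66.3%, and the 10 genes with 10 kb on either side were covered by 4.39 (Ptprc) to 11.1 (Klf1) reads per CpG. Coordinates are those of mm10 (GRCm38).

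Promoter sequences of 6 of the genes show how far they differ in CpG content. They are from RefSeq on GRCm38.p6, run 5′ to 3′ from 250 bases before to 50 after an annotated start, and have each CpG in capitals. The distal and the inner start of Runx1 (chr16:92826025-92826324 and chr16:92697280-92697579, both minus strand) are shown because they lay at opposite ends of the methylation scale. Klf1 (chr8:84901732-84902031, plus strand) has a CpG-poor start beside a gene body of low methylation, and Gfi1b (chr2:28621933-28622232, minus strand) had a start of reduced methylation with few CpGs. Myb (chr10:21160935-21161234, minus strand) has the most CpGs at its start of the 7 genes with an annotated one. Ptprc (chr1:138175256-138175555, minus strand) and Coro1a (chr7:126704767-126705066, minus strand) are the CpG-poor and the CpG-rich effector.
Runx1 distal start: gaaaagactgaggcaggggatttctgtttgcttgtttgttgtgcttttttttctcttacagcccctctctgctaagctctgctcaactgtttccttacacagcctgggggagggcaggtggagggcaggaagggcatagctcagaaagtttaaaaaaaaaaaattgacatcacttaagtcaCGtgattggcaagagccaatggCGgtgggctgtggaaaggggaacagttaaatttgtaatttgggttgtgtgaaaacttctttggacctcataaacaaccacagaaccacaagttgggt
Runx1 inner start: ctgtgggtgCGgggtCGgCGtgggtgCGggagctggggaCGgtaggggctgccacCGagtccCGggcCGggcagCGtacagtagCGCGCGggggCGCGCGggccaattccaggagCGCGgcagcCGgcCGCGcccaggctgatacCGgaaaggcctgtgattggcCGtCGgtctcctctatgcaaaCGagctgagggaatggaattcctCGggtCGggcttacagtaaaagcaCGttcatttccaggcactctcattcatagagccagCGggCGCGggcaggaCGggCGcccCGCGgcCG
Klf1: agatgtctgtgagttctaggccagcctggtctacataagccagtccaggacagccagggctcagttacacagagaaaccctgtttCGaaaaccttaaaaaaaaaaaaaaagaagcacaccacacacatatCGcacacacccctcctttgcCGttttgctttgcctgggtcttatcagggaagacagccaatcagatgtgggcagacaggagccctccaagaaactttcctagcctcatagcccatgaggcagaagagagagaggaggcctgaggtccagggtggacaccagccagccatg
Gfi1b: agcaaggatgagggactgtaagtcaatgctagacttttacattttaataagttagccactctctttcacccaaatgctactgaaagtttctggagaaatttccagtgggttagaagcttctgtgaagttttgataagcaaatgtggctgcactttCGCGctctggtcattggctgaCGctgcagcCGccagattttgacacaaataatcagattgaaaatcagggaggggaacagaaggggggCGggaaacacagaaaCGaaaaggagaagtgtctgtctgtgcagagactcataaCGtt
Myb: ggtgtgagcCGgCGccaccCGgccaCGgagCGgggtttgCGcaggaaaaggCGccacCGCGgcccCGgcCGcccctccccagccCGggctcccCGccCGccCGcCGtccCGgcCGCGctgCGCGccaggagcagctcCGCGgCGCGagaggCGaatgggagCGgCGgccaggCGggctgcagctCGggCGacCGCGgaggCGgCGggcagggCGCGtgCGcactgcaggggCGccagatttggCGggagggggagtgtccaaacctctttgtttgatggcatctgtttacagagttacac
Ptprc: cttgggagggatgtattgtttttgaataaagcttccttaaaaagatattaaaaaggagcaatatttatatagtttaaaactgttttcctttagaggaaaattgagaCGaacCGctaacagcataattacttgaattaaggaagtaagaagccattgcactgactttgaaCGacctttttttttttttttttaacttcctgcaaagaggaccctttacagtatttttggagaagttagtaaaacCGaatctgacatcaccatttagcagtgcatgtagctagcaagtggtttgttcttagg
Coro1a: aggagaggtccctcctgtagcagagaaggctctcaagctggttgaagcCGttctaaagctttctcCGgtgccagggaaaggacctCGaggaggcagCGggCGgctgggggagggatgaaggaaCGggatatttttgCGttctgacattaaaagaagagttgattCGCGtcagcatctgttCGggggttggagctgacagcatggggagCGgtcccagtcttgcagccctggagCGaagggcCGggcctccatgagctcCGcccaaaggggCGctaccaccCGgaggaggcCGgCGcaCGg

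The distal Runx1 sequence holds 2 CpGs, with 3 of 3 and 5 of 5 read counts methylated. The inner Runx1 sequence holds 35 CpGs, at 1.46% (0.476% to 3.38%, 342 read counts). The Myb sequence holds 40 CpGs, at 3.22% (1.97% to 4.92%, 622 read counts), and the Coro1a sequence 19, at 4.59% (2.22% to 8.27%, 218 read counts). These 3 sequences, 2 of regulators and 1 of an effector, had few methylated reads. In the Gfi1b sequence, the 2 CpGs nearest the start, at -7 and 8 bp, were methylated in 1 of 16 and 1 of 17 read counts, and the 7 CpGs together were at 18.1% (9.98% to 28.9%, 72 read counts). The 3 CpGs of the Klf1 sequence were methylated in 15 of 19 read counts, and the 4 of the Ptprc sequence in 6 of 11, a depth at which little can be said of Ptprc. The Klf1, Ptprc and distal Runx1 sequences all fell short of the 5 CpGs and 20 read counts required of gene ends, so none of them was called. Short motifs of blood factors were searched on both strands of the 11 promoter sequences that the reference table gives for 7 of the genes, the pair for Ptprc overlapping each other. The letters AGATAA, a form of the motif that factors of the GATA family bind, were in 2 of the 11 and in 11.2% of 31396 autosomal promoters. Other forms of the motif, such as the TGATAA in the Gfi1b sequence, were not searched. GAGGAA, bound by PU.1 and other ETS factors, was in 3 and in 28.2%, and CAGNTG, an E-box, was in 6 and in 51.4%. CACCC, a KLF motif, was in 7 and in 57.7%. TGTGGT, the RUNX motif, was in 2 and in 16.7%, and the distal Runx1 sequence held it 2 times.

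The first comparison set the start of each gene, meaning the end of the gene on the side where its transcription begins, against its other end, each within 1 kb. The reference table gave a start for 7 of the 10 genes, and 2 of these starts were low (Tal1 and Myb), 2 high (Runx1 and Ptprc) and 3 unresolved (Klf1, Gfi1b and Coro1a), whereas over all 15539 measured autosomal starts 54.1% were called low. All 7 opposite ends were high, compared with 72.3% of the opposite ends of autosomal genes. For Spi1, Lmo2 and Csf1r the table gave no start, and their ends are named by coordinate.

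**Figure D1:**
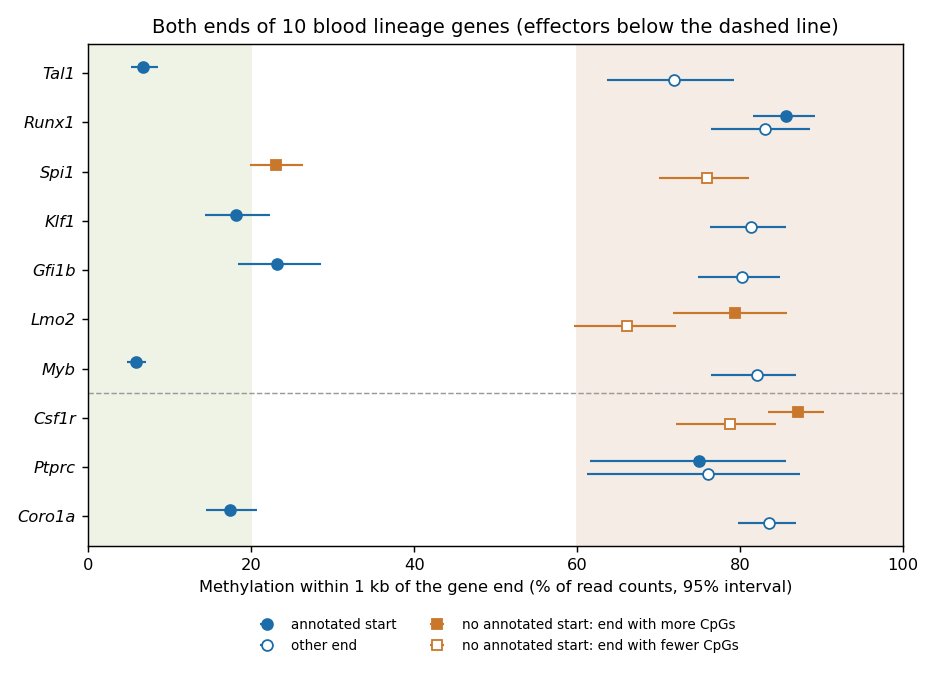
Methylation level within 1 kb of both ends of the 10 genes, in percent of read counts with 95% intervals of counting error. Filled symbols mark the gene end where transcription begins, or the end with more CpGs where no start was given. Open symbols mark the opposite end. Shading marks the low range under 20% and the high range over 60%. The starts of Myb (5.83%) and Tal1 (6.76%) lie lowest. The distal start of Runx1 (85.7%) lies above the highest opposite end (Coro1a, 83.6%), though their intervals overlap.

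Tal1, a helix-loop-helix factor without which no blood forms, was at 6.76% (5.24% to 8.55%, 947 read counts at 103 CpGs) around its start and at 71.9% (63.7% to 79.2%) around its other end. Around the outer start of Tal1, low methylation lay on the inner side. The 250 bases before the start were at 31.9% (19.1% to 47.1%), the stretch from 250 to 500 bp past it at 1.69% (0.624% to 3.65%), and the stretch from 2 to 3 kb past it at 14.2% (9.80% to 19.7%). A further start of Tal1, 1385 bp inside the gene, was at 11.6% (8.96% to 14.7%) within 500 bp. Of the 60 measured windows of 500 bp over Tal1 and its flanks, 7 were low. The lowest of them, at 3.13% (1.89% to 4.85%), was centred 6.75 kb inside the gene. It lay in a CpG-dense region, a run of 500 bp windows with at least 20 CpGs each (chr4:115062701-115064000, 88 CpGs), at 4.81% (3.60% to 6.28%), which holds no annotated start of Tal1. Another CpG-dense region lay upstream (chr4:115052301-115053200), at 13.9% (10.9% to 17.4%). Of the 4 CpG-dense regions of Tal1 3 were low, and the fourth was at 26.1% (21.2% to 31.5%). Its gene body as a whole was at 22.7% (21.2% to 24.4%), lower than in all but 3.11% of autosomal gene bodies.

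Runx1, the core-binding factor of blood stem cells, is the longest of the genes at 224609 bp and has a distal and an inner start 128745 bp apart. Around the distal start, which is CpG-poor with 18 CpGs within 500 bp, the level was 85.7% (81.6% to 89.2%, 343 read counts), and around the opposite end of the gene it was 83.1% (76.4% to 88.6%). Of autosomal CpG-poor starts, 50.2% were called high. Within 500 bp of the inner start, with 83 CpGs, the level was 6.39% (4.89% to 8.18%, 908 read counts). Of autosomal CpG-rich starts 92.7% were called low, though over a wider window of 1 kb on either side of the gene end. The low DNA extended to both sides of the inner start, with 4 neighbouring low windows (chr16:92696966-92698965) at 4.99% (3.98% to 6.16%) and 3 more (chr16:92694466-92695965) further into the gene, the lowest of which was at 1.55% (0.672% to 3.03%). Not all CpG-dense DNA of Runx1 was low. Of its 7 CpG-dense regions, 2 were low and 2 unresolved, whereas 3 between the inner start and the far end were high, at 77.9%, 86.8% and 90.4%. Near that far end, but more than 1 kb from it, a region of 73 CpGs (chr16:92605301-92606500) was at 18.7% (16.2% to 21.4%).

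Lmo2, the partner that links Tal1 to GATA factors, had no low DNA at either end of the gene as annotated. Its lower-coordinate end was at 79.4% (71.8% to 85.8%) and its higher-coordinate end at 66.1% (59.6% to 72.2%), and neither end is CpG-rich. All 4 low windows of Lmo2 were consecutive and lay inside the gene (chr2:103969403-103971402). The CpG-dense region there (chr2:103969201-103971300, 149 CpGs), 11.3 to 13.4 kb from the lower-coordinate end, was at 6.14% (5.06% to 7.38%, 1725 read counts). In Lmo2 as in Runx1, every low window lay inside the annotated gene and more than 1 kb from either end of it.

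Myb, a factor that keeps blood progenitors dividing, had the longest run of low windows of the 10 genes, 6 windows or 3000 bp (chr10:21158430-21161429) at 5.96% (5.06% to 6.96%, 2502 read counts). Within 1 kb of its start the level was 5.83% (4.72% to 7.10%), and around its other end it was 82.1% (76.4% to 86.9%). The low run was not centred on the start. From 2 to 3 kb into the gene the level was 11.6% (7.63% to 16.6%), whereas from 1 to 2 kb before the start it was 48.3% (29.4% to 67.5%) over 29 read counts. A lone low window lay deeper in Myb (chr10:21144930-21145429, 18 CpGs), at 9.39% (6.04% to 13.8%). It is outside any CpG-dense region and away from both ends of the gene.

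Klf1, the erythroid factor that switches on adult globin, is the shortest of the genes at 3310 bp, and its body was low whereas its start was not. Within 500 bp of the start Klf1 has 7 CpGs, at 59.5% (42.1% to 75.2%, 37 read counts). The CpG-dense region that follows (chr8:84902401-84903900, 98 CpGs), from 0.419 to 1.92 kb past the start, was at 2.98% (2.11% to 4.08%, 1242 read counts), and the next stretch, from 2 to 3 kb, was at 83.0% (76.9% to 88.0%). The level of 18.1% (14.4% to 22.3%) within 1 kb of the start averages over these unlike stretches. The Klf1 body between 1 kb from each end, at 3.59% (2.50% to 4.98%), was lower than all but 0.141% of autosomal gene bodies. Of the 10 low windows over Klf1 and its flanks, 6 lay within 1 kb of an end of a neighbouring gene (Gcdh, Dnase2a or Mast1).

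Gfi1b, a transcriptional repressor that acts in the erythroid and megakaryocyte lineages, was the only regulator without a low window among its 59 measured ones. That depends on the threshold. With an upper bound of 30% in place of 20%, or with any level under 20% counted as low, Gfi1b had 2 low windows. Its start, with 20 CpGs within 500 bp, was at 23.2% (18.4% to 28.6%) within 1 kb and its other end at 80.2% (74.9% to 84.9%). Methylation at Gfi1b was lower near the start than further out on both sides, though unevenly over bins with few CpGs. It was 62.3% (53.4% to 70.7%) from 1 to 2 kb before the start, 22.4% (11.8% to 36.6%) in the last 250 bases, 12.4% (6.94% to 19.9%) in the first 250 bases of the gene and 61.9% (53.5% to 69.8%) from 1 to 2 kb inside. Of autosomal CpG-intermediate starts, 32.0% were called low and 18.7% high, with a median level of 23.0%. The CpG-dense region of Gfi1b (chr2:28611201-28611800), inside the gene 10.2 to 10.8 kb from the start, was high at 74.7% (69.3% to 79.7%).

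Spi1, which encodes PU.1 of the myeloid and B lineages, was at 23.0% (19.9% to 26.4%) around its higher-coordinate end, with 46 CpGs within 500 bp, and at 75.9% (70.1% to 81.1%) around its lower-coordinate end, with 13. The CpG-dense region at the higher end (chr2:91114901-91115900) was at 17.1% (14.2% to 20.4%). A second one (chr2:91078401-91079300) outside the gene, beyond the lower end, was low at 11.2% (7.99% to 15.1%). The third (chr2:91119001-91119700), beyond the higher end and within 1 kb of an end of Mybpc3, was high at 83.7% (78.6% to 88.1%). The Spi1 body was at 76.0% (74.5% to 77.5%), near the autosomal median of 75.7%. Only 2 of 96 measured Spi1 windows were low, a share of 2.08% that is near the 2.31% of all windows around autosomal genes.

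**Figure D2:**
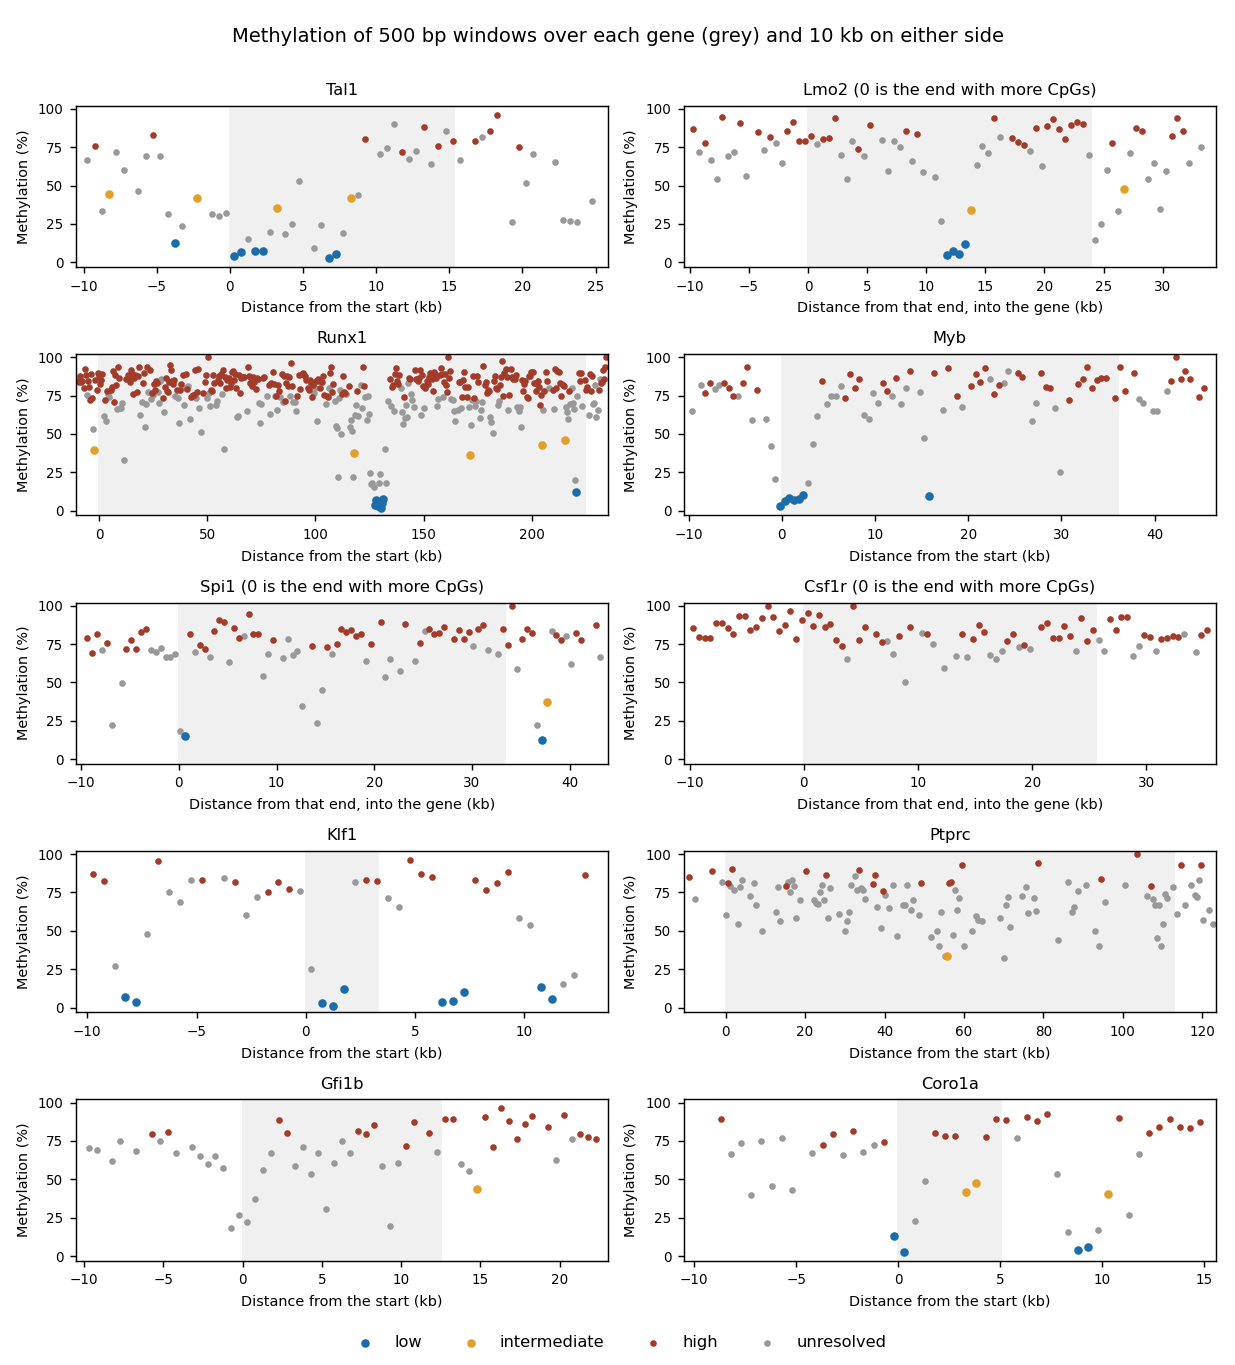
Methylation level of each measured 500 bp window over the 10 genes (grey) and 10 kb on either side. Distance in kb is from the gene end where transcription begins, or from the end with more CpGs where no start was given. Colours mark low, intermediate, high and unresolved windows. Tal1, Myb and Coro1a have low windows at the start and others away from it, those of Runx1 and Lmo2 all lie inside the gene, and Klf1 has 3 inside the gene and 7 in its flanks. Spi1 has 1 at the end with more CpGs and 1 beyond the other end, and Gfi1b, Csf1r and Ptprc have none.

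Of the 3 effectors, Csf1r and Ptprc had no low window and Coro1a had 4. Csf1r, the receptor through which macrophages receive their growth signal, was at 87.1% (83.4% to 90.3%) around its higher-coordinate end and 78.8% (72.2% to 84.5%) around its lower-coordinate end (chr18:61104572-61106572). None of its 85 measured windows was low or intermediate, and the lowest was at 50%. Csf1r has no CpG-dense region, and no window of it held more than 15 CpGs. Its body was at 78.9% (77.4% to 80.4%), the highest of the 10.

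Ptprc encodes CD45, the phosphatase on the surface of all nucleated blood cells. It was at 75% (61.6% to 85.6%, 56 read counts) around its start and at 76.1% (61.2% to 87.4%) around its other end. The annotated starts of Ptprc lie 451 and 630 bp inside this end, and within 500 bp of them the level was 73.8% (58.0% to 86.1%) and 73.7% (56.9% to 86.6%), both unresolved. Within 500 bp of the gene end it was 60.9%. Ptprc is so poor in CpGs, with a median of 2 per window, and so thinly covered that 139 of its 265 windows could not be measured. None of the 126 measured windows was low, and 104 were unresolved. A window with 16 read counts or fewer could not be called low, since 0 of 16 methylated has an upper bound of 20.6%. The Ptprc body was at 66.4% (64.6% to 68.1%), and 1 window about 55.6 kb inside the gene (chr1:138119859-138120358, 13 CpGs) was intermediate at 33.3% (24.4% to 43.2%).

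Coro1a, an actin regulator of white blood cells, had a CpG-rich start. It has 45 CpGs within 500 bp and was at 17.4% (14.5% to 20.7%) within 1 kb, but at 10.1% (7.51% to 13.3%) within 500 bp, which is low. Low methylation was narrow there. The first 250 bases of the gene had 2 of 154 read counts methylated (0.158% to 4.61%), the stretch from 500 to 1000 bp inside was at 22.3% (14.4% to 32.1%), and the stretch from 500 to 1000 bp before the start was at 83.7% (69.3% to 93.2%). The other end of Coro1a was high at 83.6% (79.8% to 86.9%), and a CpG-dense region inside the gene (chr7:126701201-126702000) was intermediate at 44.4% (38.8% to 50.2%). Another CpG-dense region, outside the gene beyond that other end (chr7:126692101-126693100), was high at 77.9% (73.7% to 81.7%). Of the 4 low windows around Coro1a, 2 lay at an end of its neighbours Bola2 and Slx1b.

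**Figure D3:**
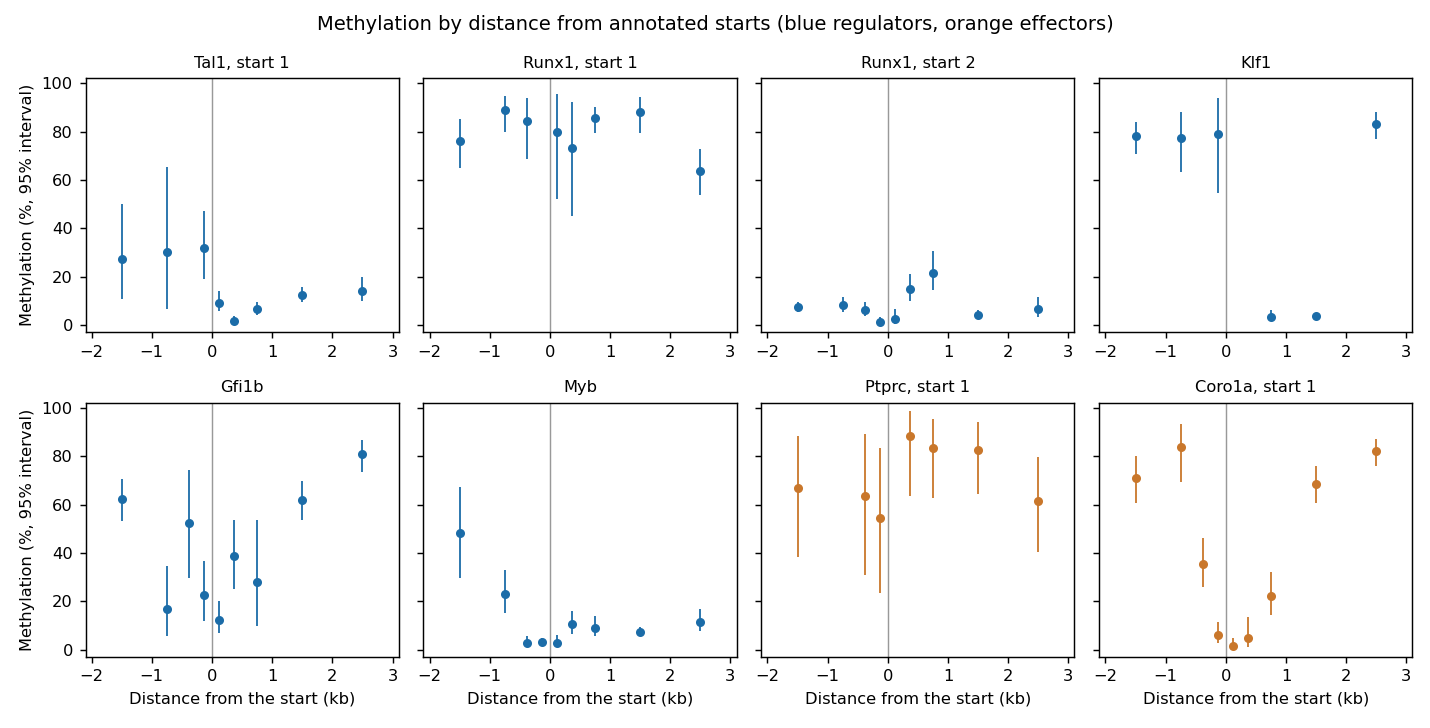
Methylation level by distance in kb from 8 annotated starts of 7 genes, in bins of 250 to 1000 bp with at least 10 read counts and 95% intervals of counting error, blue for regulators and orange for effectors. The inner start of Runx1 stays under 25% throughout, whereas its distal start stays above 60%. At the outer start of Tal1 (start 1) and the start of Klf1, low bins lie past the start and none before it, and Coro1a has its minimum, 2 of 154 read counts, in the first 250 bases.

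Most low windows were rich in CpGs. Over the 10 genes, 42 of 1150 measured windows were low (3.65%), compared with 2.31% of 1679596 windows within 10 kb of autosomal protein-coding genes. Among windows with at least 20 CpGs, 33 of 41 around the 10 genes were low, compared with 71.9%. With 10 to 19 CpGs 7 of 187 were low, compared with 4.30%, and with under 10 CpGs 2 of 922, compared with 0.110%. By CpG-dense regions, 14 of 25 were low, compared with 49.6%. Set by CpG number, these shares lie near those of the genome, and nothing particular to the 10 genes is read from them. Regulators held 38 of the 42 low windows, out of 892 measured (4.26%), and effectors held 4 out of 258 (1.55%), all in Coro1a. Windows with 10 to 16 read counts count as measured but could not be called low. This limits the shares given here, most of all at the thinly covered Ptprc. Among measured windows with at least 20 CpGs, 29 of 34 were low for regulators and 4 of 7 for effectors. By position, 15 of the 42 lay within 1 kb of an annotated start or end of the gene itself, 8 within 1 kb of an end of another gene, and 19 of neither.

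The division into regulators with CpG islands and CpG-poor effectors held only in part at gene starts. Tal1 (64 CpGs within 500 bp) and Myb (93) were CpG-rich, but Runx1 (18, at its distal start) and Klf1 (7) were CpG-poor and Gfi1b (20) lay between. Ptprc (9) was a CpG-poor effector, but Coro1a (45) was CpG-rich. Within the genes or 10 kb of them, regulators had 21 CpG-dense regions, of which 12 were low, and effectors had 4, all at Coro1a, of which 2 were low. Of these low regions, 3 at Klf1 and 1 at Coro1a lay within 1 kb of an end of a neighbouring gene. Among gene bodies, Lmo2 (39.5%, 37.8% to 41.2%) and Myb (51.8%, 50.1% to 53.4%) followed Klf1 and Tal1 as the lowest, Coro1a was at 60.4%, Gfi1b at 65.5% and Runx1 at 66.9%. Leaving out 2 kb at each end in place of 1 kb raised Myb to 65.1% and Coro1a to 78.1%, and left no body of Klf1 to measure.

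Other genes of the blood lineages, from a list of 40 regulators and a list of 50 effectors, gave the wider setting. The start, again the gene end where transcription begins, was measured for 35 regulators and 32 effectors with an annotated start on the autosomes. Further starts inside these genes, like the inner start of Runx1, were not measured. The classes and levels below therefore hold for the outer start alone. Of the regulator starts 24 were low and 3 high, with a median of 9.04%, and of the effector starts 4 were low and 17 high, with a median of 70.1%. All measured autosomal starts had a median of 14.1%, with 54.1% called low and 19.5% high. By class of CpG content the counts were as follows. Of CpG-rich starts 22 of 22 regulators and 4 of 5 effectors were low, compared with 92.7%. Of CpG-poor starts 0 of 6 regulators and 0 of 19 effectors were low, compared with 2.61%. Of CpG-intermediate starts 2 of 7 regulators and 0 of 8 effectors were low, compared with 32.0%. High starts in this class were 1 of 7 regulators and 5 of 8 effectors, compared with 18.7%. Among CpG-poor starts 2 of 6 regulators and 12 of 19 effectors were high, compared with 50.2%. No CpG-rich start of either list was high. The lists differ in makeup, since 22 of 35 regulators and 5 of 32 effectors had CpG-rich starts.

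The lowest regulator starts were those of the ETS factor Elf1 (2.91%, 2.25% to 3.70%), the GATA cofactor Zfpm1 (3.79%) and the homeobox gene Meis1 (3.97%). The highest were Runx3 (78.6%, 74.3% to 82.4%), a relative of Runx1, the ETS factor Spib (74.6%), a relative of Spi1, and the corepressor Cbfa2t3 (66.9%). Among effectors the lowest were the cell adhesion gene Emb (5.03%, 3.77% to 6.57%) and the growth factor receptors Kit (5.47%) and Flt3 (11.5%), all of them with CpG-rich starts. The highest were the Fc receptor chain Fcer1g (86.8%, 82.4% to 90.5%), the surface protein Cd48 (86.1%) and the T cell kinase Lck (85.4%). These are levels at the outer start of autosomal genes with an annotated start, and any start further inside was not measured. With the X and with ends chosen by CpG number, Gata1 (75.7%, on the X), which encodes the erythroid GATA factor, and the T cell coreceptor Cd4 (88.2%) would be among the highest.

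**Figure D4:**
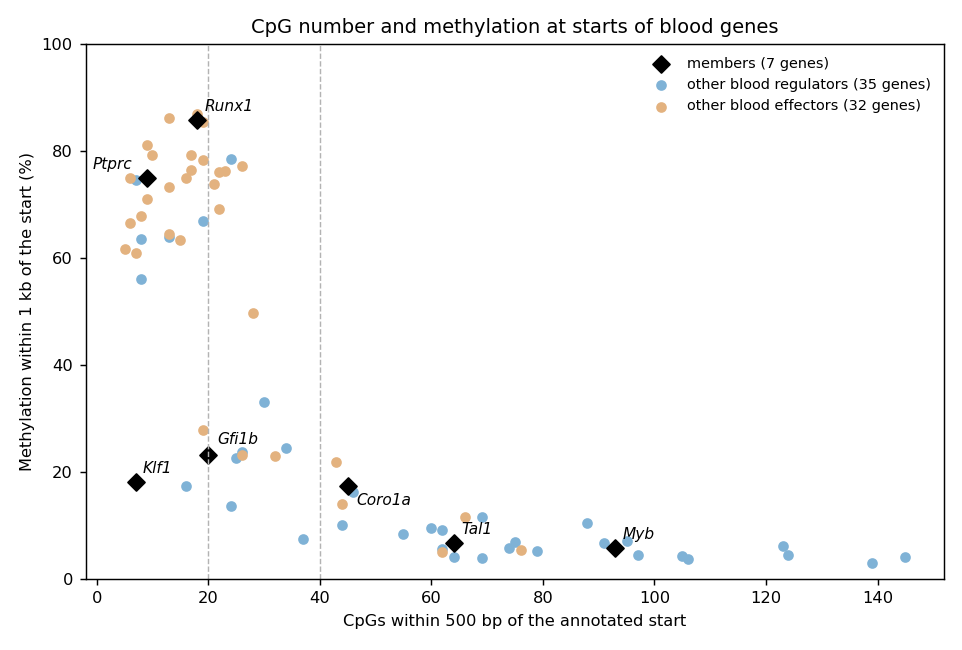
CpGs within 500 bp of the gene end where transcription begins, against methylation level within 1 kb of it, in percent of read counts. Shown are 7 of the 10 genes (black diamonds), 35 other blood regulators and 32 other blood effectors. Annotated starts further inside a gene, as in Ptprc and Runx1, are not shown. Dashed lines at 20 and 40 CpGs part the classes. Starts with 40 CpGs or more lie under 25% in both lists, and Klf1 (7 CpGs, 18.1%) is among the lowest of those under 20, with a 1 kb window that takes in part of its CpG-dense body.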

How the data were processed

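The authors deposited counts of methylated and unmethylated reads for each strand of each CpG, as 43816016 lines without a header. Per the submitters' processing notes, the build was mm10 and the tools Bowtie2 2.1.0, Bismark 0.12.5 and cutadapt 1.3, whose roles they leave out. How samples were pooled, filtered or cleared of duplicates is not given in the sources used here. Repeated reads of 1 molecule, or 1 read over several CpGs, would make intervals too narrow.

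Strands were summed with Python 3.11.15, numpy 2.4.6 and scipy 1.17.1. Gene ends came from a RefSeq gene table and starts and strands from a RefSeq promoter table, both of GRCm38.p6. All 395568 CpGs of its 31396 autosomal promoter sequences were at CpG positions of the deposited table. For 4357 of 21631 genes without a promoter entry the end with more CpGs was taken, and these were left out of the shares over autosomal starts and of the list counts. Gene ends needed 5 CpGs with a read and 20 read counts, and windows 2 and 10. CpG-dense regions merge all 500 bp windows, moved by 100 bp, that hold 20 CpGs or more. Of the lists, 1 regulator and 3 effectors are on the X and 1 effector was not in the gene table. All 10 members are named, with the 3 highest and 3 lowest measured starts of each list. The members and lists were chosen with earlier results of these data known. Alternatives changed depth minimums, strand, summary, window and threshold. Calls were tested on simulated independent read counts at levels away from the thresholds, with unresolved calls not counted as wrong. This checks the calling code, and not calls near a threshold or reads that are not independent. No p-value was computed.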

Additional observations from a re-analysis of the deposited data

How the results depend on the processing

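The number of members low within 1 kb of the start, or of the end with more CpGs, was 2, and with plus strand reads alone it was 4. In the 5 other alternatives with intervals it was 2 or 3. The number of gene bodies called low was 0 once 2 kb was left out at each end, and 1 (Klf1) otherwise, since Klf1 then has no body left to measure. With an upper bound of 30% in place of 20%, 7 effector starts of the list were low in place of 4. The number of low windows over all members lay between 35 and 60, around 42, in the alternatives run. The longest low run of Tal1 went from 2 windows to 6 with an upper bound of 30%, and to 5 with the grid shifted by 250 bp. That of Runx1 went from 4 to 8 with the bound of 30%. The level within 1 kb of the start or of the end with more CpGs left its own interval in 16 of 68 comparisons. The start of Klf1 was at 59.5% with 500 bp on either side and at 18.1% with 1 kb. The other end of Klf1 was at 36.9% with 2 kb and at 81.3% with 1 kb, since 2 kb reaches its CpG-dense body. The start of Gfi1b was at 42.5% with 2 kb and at 23.2% with 1 kb, and the start of Coro1a at 32.5% with 2 kb and at 17.4% with 1 kb. Spi1 was at 34.8% with 2 kb and at 23.0% with 1 kb at its higher-coordinate end. No paired analysis was possible because the table has no column per sample, and for the same reason no replicate could be left out. Depth limits Ptprc most, at 4.39 reads per CpG.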
